A study of Rattus norvegicus with 45 samples.

Results

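Cerivastatin at 0.5 mg/kg/day, the middle of the study's 3 doses, was compared with vehicle in gastrocnemius muscle of female SD rats that were not exercised. The comparison used every array labelled with either of these conditions, 4 of cerivastatin and 4 of vehicle, which is 8 of the 45 arrays of the series. Each array was hybridised with RNA of 1 muscle sample, and the series describes its replicates as biological. Both groups were dosed for 14 days, and the vehicle was 0.5% methylcellulose. The rats' age and the part of the gastrocnemius taken were not given in the sources used here. The other gastrocnemius arrays came from unexercised rats given 0.1 mg/kg/day (4 arrays) or 1.0 mg/kg/day (3 arrays), and from rats dosed for 14 days that also ran on a treadmill for 20 min on 5 days a week at 20 m/min (vehicle 4, 0.1 mg/kg/day 4, 0.5 mg/kg/day 3 and 1.0 mg/kg/day 4 arrays). The series asks what cerivastatin does to muscle, with and without exercise. For the middle dose the comparison asks which genes differ from vehicle, and how large a difference could have gone unseen in 4 against 4 animals.

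Statins inhibit the mevalonate pathway, which supplies cholesterol and the isoprenoids that anchor small GTPases to membranes. When sterols fall, the transcription factor SREBP-2 is released from its retention by Insig proteins and raises transcription of the sterol synthesis enzymes. Statins can injure skeletal muscle, and fast glycolytic fibres, which make up much of the rat gastrocnemius, are known to be more affected than slow oxidative fibres.

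No probe set passed the test between 0.5 mg/kg and vehicle. Of 21729 probe sets above the filter on dim signals, 0 (0%) passed an adjusted p of 0.05 by limma's moderated test with Benjamini-Hochberg adjustment, and the smallest adjusted p was 0.998. At an unadjusted p below 0.05 there were 713 (3.28%), of which 415 (1.91%) had a higher and 298 (1.37%) a lower value with cerivastatin. The 4 treated arrays lay wholly above the 4 vehicle arrays for 287 probe sets (1.32%) and wholly below for 243 (1.12%), together 2.44%. Over the 11631 genes with a probe set of 1 symbol, each read through its brightest one, 377 (3.24%) had an unadjusted p below 0.05 and 274 (2.36%) did not overlap. None of the differences at 0.5 mg/kg named here passed the test, and each is given as a value with its interval. Genes picked from a list for the largest differences on these arrays carry no p-value from them. A gap between the groups in such a gene is no test either.

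The spread between animals set what could be excluded. A difference is given as log2 of the signal plus an offset of 12.4, so that 1 is 2-fold, and its 95% interval comes from the moderated spread of the 8 arrays. The interval lay inside 2-fold in both directions for 14156 probe sets (65.1%). It lay inside 4-fold for 20548 (94.6%) and inside 1.5-fold for 7547 (34.7%). A 2-fold rise lay outside the interval for 16609 probe sets (76.4%) and a 2-fold fall for 17861 (82.2%). A pair of one-sided tests against 2-fold, adjusted over all probe sets, called 14785 (68%) smaller than 2-fold in both directions. The median half-width of the interval was 0.56. Read per gene, 8556 of 11631 (73.6%) had an interval inside 2-fold.

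Precision followed signal. The probe sets were split into 4 equal parts by mean signal. In the dimmest part, with mean signals of 52.3 to 116, the median half-width was 1.15 and 7.46% of the intervals lay inside 2-fold. That share was 62.7% in the next part, 93.6% in the one after and 96.9% in the brightest, where the median half-width was 0.31. In the dimmest part 81.4% of the intervals still lay inside 4-fold. A 2-fold change was therefore outside the interval for nearly every bright gene and within it for nearly every dim one.

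**Figure D1:**
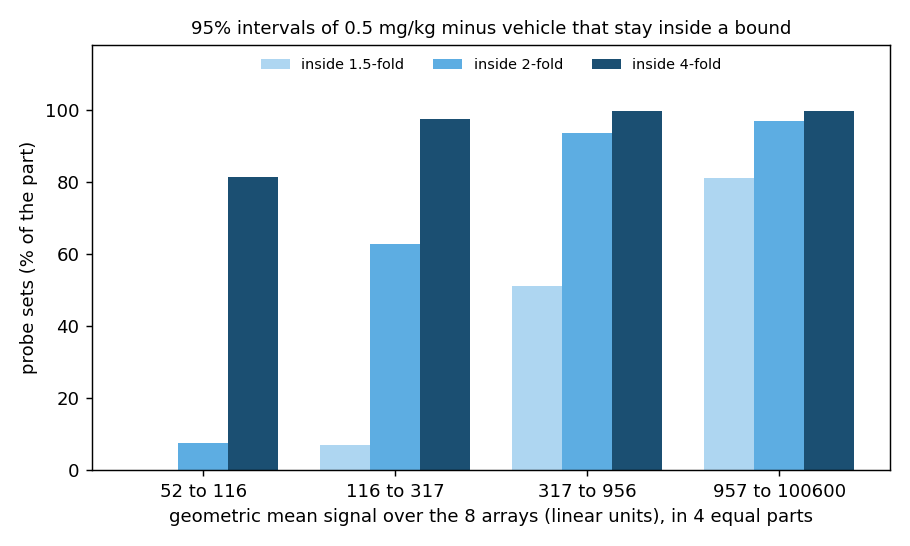
Share of tested probe sets (vertical axis, percent of the part) whose 95% interval of 0.5 mg/kg minus vehicle stays inside 1.5-, 2- and 4-fold in both directions, in 4 equal parts by mean signal (horizontal axis, linear units). The 2-fold bars climb from 7.46% in the dimmest part to 96.9% in the brightest.

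The 8 arrays were alike in median signal and in correlation. Median signals were 139 to 163, the ratio of 5' to 3' signal was 0.282 to 0.515 for beta-actin and 0.745 to 0.877 for GAPDH, and array-to-array correlations over the tested probe sets were 0.920 to 0.946 between the groups, 0.917 to 0.943 within vehicle and 0.926 to 0.949 within cerivastatin. The median SD over probe sets was 0.35 in vehicle and 0.31 with cerivastatin, and the SD was lower with cerivastatin for 57.9% of probe sets. Fast-fibre markers that mark the gastrocnemius were bright: Myh4, the IIB myosin heavy chain, read 52135 to 74564 and Actn3, the fast alpha-actinin, 70398 to 86081. The slow myosin Myh7 was also bright, at 22430 to 84475, so transcripts of slow as well as fast fibres were present in all 8 samples. Vehicle replicate 4 had the highest mean of the 8 arrays for the adipocyte, matrix and macrophage lists. It also had the lowest beta-actin ratio, 0.282, and the part of that in its values was not tested. In the other unexercised groups, replicate 3 of 0.1 mg/kg and replicate 3 of 1.0 mg/kg stood apart from their groups.

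Genes that respond to the high dose were then read at the middle dose. They were taken from 8 arrays that the comparison does not use, exercised 1.0 mg/kg against exercised vehicle, as genes called by the same test with at least a 2-fold change. There were 2177 higher genes, with a median difference of 1.75 at the high dose. At 0.5 mg/kg their median was -0.011, against -0.0034 over all tested genes, and 1054 of them (48.4%, against 49.3% of all genes) had a positive value. A 2-fold rise lay outside the interval for 1724 (79.2%), against 82.8% of all genes, and the interval ended short of the gene's own high-dose value for 2084 (95.7%). The 1513 lower genes had a median of -1.50 at the high dose and -0.0054 at 0.5 mg/kg. A 2-fold fall lay outside the interval for 1407 of them (93%), against 85.9% of all genes, and the high-dose value itself for 1477 (97.6%). Of both sets together, 3131 (84.9%) excluded a 2-fold change in the high-dose direction, which lies between the shares of all genes for a rise (82.8%) and a fall (85.9%). The shares set against a gene's own high-dose value have no counterpart over all genes, as these genes were chosen for large values at that dose.

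Each array was also placed along the exercised high-dose difference over all genes, on a scale where 0 is the vehicle mean and 1 the full difference. The cerivastatin arrays at 0.5 mg/kg lay at -0.091, 0.029, 0.011 and 0.025. The vehicle arrays, each set against the other 3, lay at -0.081, -0.0022, -0.059 and 0.14. The treated arrays fell inside the range of the vehicle arrays except replicate 1, which lay just under it. At 1.0 mg/kg without exercise the arrays lay at 0.76, 0.85 and 0.096, so replicate 3 sat near vehicle. At 0.1 mg/kg they lay at 0.036, -0.020, 0.73 and -0.079, so replicate 3 sat with the high dose.

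**Figure D2:**
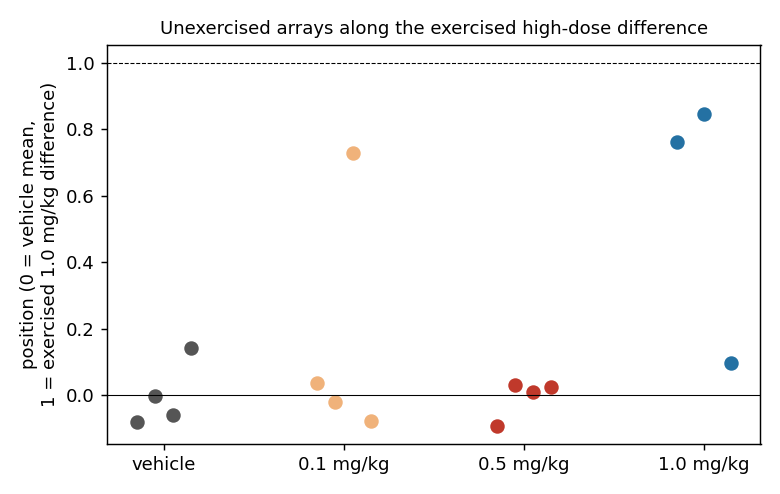
Position of each unexercised gastrocnemius array (points) along the exercised 1.0 mg/kg minus vehicle difference over all tested genes (vertical axis, 0 is the vehicle mean and 1 the full difference), by dose. The 4 arrays at 0.5 mg/kg lie between -0.091 and 0.029, beside the vehicle arrays; 1 array at 0.1 mg/kg lies at 0.73 and 1 at 1.0 mg/kg at 0.096.

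The sterol synthesis enzymes, the direct targets of the SREBP-2 response, showed no rise that could be told from the spread. Of 22 genes listed, 19 were tested, 9 had a positive value, and the median was -0.0040, against -0.0034 over all genes. A 2-fold rise lay outside the interval for 17 of the 19, and 15 (78.9%, against 73.6% of all genes) lay inside 2-fold both ways. The exceptions for a rise were Sqle and Lss. Hmgcs1 was not analysed here.

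Idi1, which isomerises isopentenyl diphosphate, read 353, 354, 338 and 162 in the vehicle arrays and 263, 269, 298 and 275 at 0.5 mg/kg. The treated values lay within the vehicle range, whose lowest array was replicate 4. Its difference was -0.061 (95% interval -0.62 to 0.50), while the exercised high dose gave 2.69. A dimmer Idi1 probe set gave -0.74 (-2.03 to 0.56), which did not exclude a 2-fold fall. Cyp51, the lanosterol demethylase, read 694, 714, 722 and 722 with vehicle and 732, 635, 414 and 603 with cerivastatin, a difference of -0.28 (-0.67 to 0.11) where the high dose gave 2.07. A dimmer Cyp51 probe set had a lower value too, at -0.65 (-1.13 to -0.17, unadjusted p = 0.0121). Neither interval reached above 0.11.

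Sqle, squalene epoxidase, was uncertain. Vehicle arrays read 63.5, 41.8, 58.6 and 57.2, and cerivastatin arrays 54.3, 43.6, 124 and 144. Replicates 3 and 4 lay above every vehicle array and replicates 1 and 2 among them. The difference was 0.49 (-0.52 to 1.51), so a 2-fold rise was not excluded, whereas the exercised high-dose value of 4.69 lay far outside. Lss, lanosterol synthase, gave 0.42 (-0.27 to 1.10), with 1 vehicle array at 73.9 and the other 7 arrays between 175.6 and 229.6. Acat2, the cytosolic thiolase at the start of the pathway, read 209, 182, 202 and 236 with vehicle and 135, 164, 106 and 144 with cerivastatin. The groups did not overlap and cerivastatin was lower, by a difference of -0.56 (-1.09 to -0.030). The exercised comparison gave -0.49 (-1.09 to 0.11), and the exercised high dose 2.03. Tm7sf2, a sterol reductase, gave -0.62 (-1.39 to 0.16), Dhcr7, the last reductase of the pathway, -0.078 (-0.66 to 0.50), and Fdft1, squalene synthase, 0.059 (-0.31 to 0.43).

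The regulators of sterol balance were read in the same way. Of 20 genes, 16 were tested, with a median of -0.069, and 13 lay inside 2-fold. Insig1, the SREBP anchor that is itself an SREBP target, read 617, 659, 762 and 544 with vehicle and 609, 575, 705 and 528 at 0.5 mg/kg. The groups overlapped throughout, and the difference of -0.091 (-0.44 to 0.26) left out even a 1.5-fold rise. At 1.0 mg/kg without exercise it read 4894, 5434 and 664. Srebf2, which encodes SREBP-2, gave 0.054 (-0.36 to 0.47).

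The genes of cholesterol efflux gave mixed values. Nr1h3, the oxysterol receptor LXR-alpha, read 455, 394, 512 and 345 with vehicle and 559, 556, 628 and 606 with cerivastatin. The groups did not overlap, with a difference of 0.46 (0.10 to 0.83). Abca1, the cholesterol exporter that LXR induces, read 112, 595, 345 and 235 with vehicle and 527, 531, 492 and 486 with cerivastatin; vehicle replicate 2 lay above every treated array. Its difference was 0.86 (0.039 to 1.69), but its other 3 tested probe sets gave 0.79, 0.0080 and -0.35, so the probe sets disagreed. Exercised animals gave 0.16 (-0.36 to 0.69) for Nr1h3 and 0.38 (-0.59 to 1.35) for Abca1. Abcg1, another efflux transporter of the list, gave -0.12 (-0.87 to 0.62) without exercise. The listed sterol regulators Mylip, a ubiquitin ligase that LXR induces, at -0.35 (-0.80 to 0.094) and Soat1, which esterifies cholesterol, at -0.43 (-1.76 to 0.90) had the largest negative values.

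Among prenylation enzymes and small GTPases 18 of 20 genes were tested, the median was -0.051 and 16 (88.9%) lay inside 2-fold. Rhob, a GTPase whose transcript is known to respond to statins, read 3832, 3906, 3148 and 7155 with vehicle and 3534, 4088, 4152 and 2559.7 with cerivastatin. All treated arrays lay under vehicle replicate 4, the difference was -0.28, and its upper limit of 0.23 fell short of the 1.07 of the exercised high dose. Icmt, which methylates prenylated proteins, was dimmer and less certain at -0.60 (-1.89 to 0.69). Of 15 fatty acid synthesis genes, which SREBP-1 controls, 14 were tested, 9 lay inside 2-fold and 7 had a positive value. Fasn, fatty acid synthase, gave 0.62 (-0.39 to 1.63), with vehicle arrays from 128.4 to 709.7 and treated arrays from 235.5 to 621.9; its other tested probe set gave -0.42 (-1.47 to 0.62), so the probe sets disagreed in sign.

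**Figure D3:**
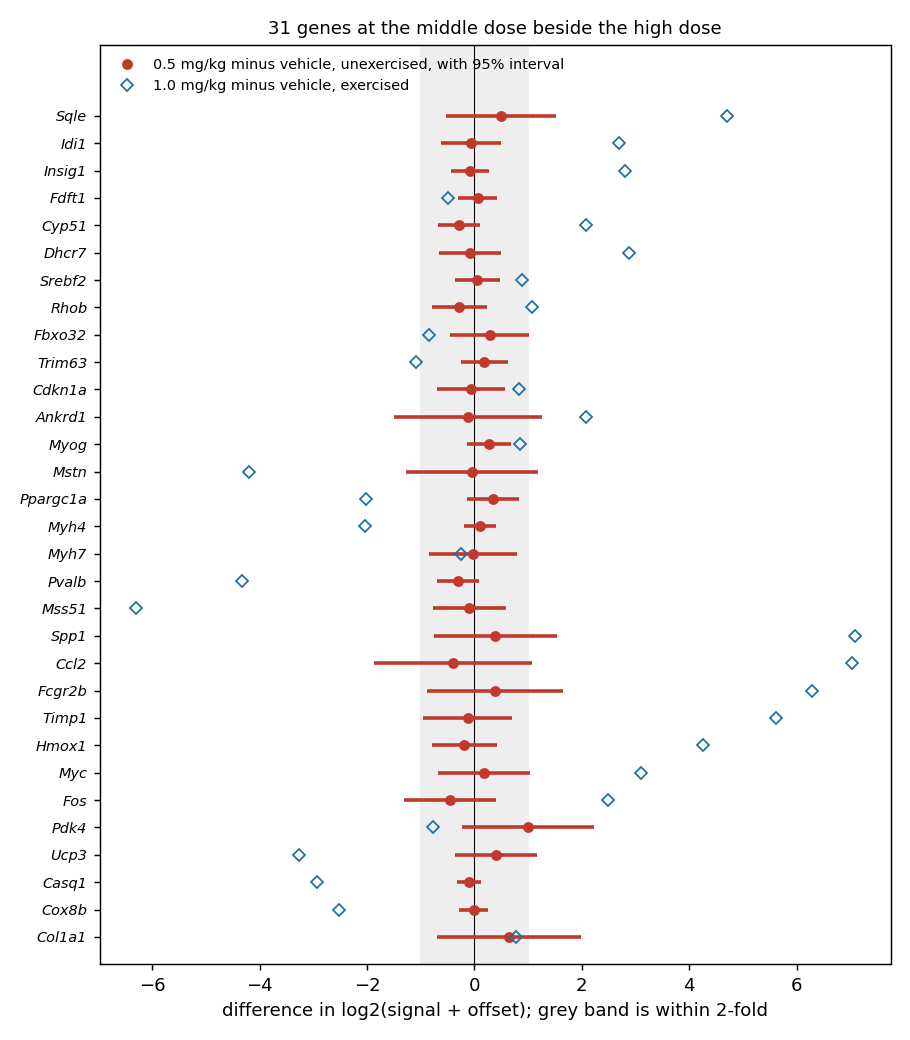
Difference at 0.5 mg/kg without exercise (red points, with 95% intervals as bars) for the 31 tested genes of a panel of 36, beside the difference at 1.0 mg/kg with exercise (blue diamonds), both on the log2(signal + 12.4) scale. All red intervals span 0, and for Spp1 the interval ends at 1.54 where the high-dose value is 7.08.

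Fast-fibre genes were tightly measured. Of 20 fast-fibre genes 19 were tested, with a median of -0.034 and 18 inside 2-fold; the exception was Myh1, the IIX myosin. Myh4 read 52705, 57455, 74564 and 52135 with vehicle and 71741, 58726, 60601 and 61801 with cerivastatin. The difference of 0.11 (-0.19 to 0.40) excluded the value of -2.04 seen at the exercised high dose. Pvalb, the calcium buffer of fast fibres, gave -0.30 (-0.69 to 0.082) against -4.33 at that dose, and Mss51, a fast-muscle gene, -0.10 (-0.77 to 0.58) against -6.31. Casq1, calsequestrin of the fast sarcoplasmic reticulum, had one of the narrowest intervals of the panel, -0.10 (-0.32 to 0.12).

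Mylk2, the kinase of skeletal myosin light chains, had a lower value. Vehicle arrays read 8997, 16425, 10619.6 and 10988 and treated arrays 7173, 6839, 8202 and 8684. The groups did not overlap, with a difference of -0.58 (-0.94 to -0.21). A dimmer probe set gave -0.31 (-0.89 to 0.26). The exercised 0.5 mg/kg arrays, which share no array with these, gave -0.56 (-0.99 to -0.13, unadjusted p = 0.0156), and the exercised high dose -4.31. Myh1 read 21713, 7468, 14064 and 12417 with vehicle and 23218, 16052, 22874 and 16675 with cerivastatin. Its difference was 0.58 (0.0037 to 1.16), with 0.57 (0.11 to 1.02) in exercised animals. Of its other 4 tested probe sets, 3 gave 0.47 to 0.59 and the dimmest -0.19 (-0.47 to 0.087). These were 2 of 19 fast-fibre genes with an unadjusted p below 0.05, one in each direction, against 3.24% of all genes. In the exercised comparison 3 of 19 fast-fibre genes had a positive value, against 47.8% of all genes, with a median of -0.14. All 16 slow-fibre genes were positive there, with a median of 2.36. The part of fibre content in the exercised values of Mylk2 and Myh1 was not tested.

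Slow-fibre genes could hardly be judged. Only 4 of the 16 tested lay inside 2-fold (25%, against 73.6% of all genes), with a median half-width of 1.03. Their mean log2 level was 14.62, 13.93, 13.23 and 12.85 in the vehicle arrays and 12.54, 13.89, 14.21 and 13.93 in the treated arrays. The groups overlapped almost fully, and the lowest array was treated replicate 1. Myh7 read 84475, 60979, 31698 and 34671 with vehicle and 22429.7, 58412, 74039.6 and 53577 with cerivastatin, a difference of -0.031 (-0.85 to 0.79); a dimmer probe set gave 0.62 (-1.15 to 2.40). Myl3, the slow light chain, gave 0.39 (-0.45 to 1.23) and Csrp3, a Z-disc LIM protein, -0.42 (-1.60 to 0.77). In bulk muscle, more slow fibres in a piece and more slow-fibre RNA per fibre cannot be told apart, and the same holds for every cell type named here.

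Atrophy genes lay mostly within 2-fold, 19 of 22 tested (86.4%), with a median of 0.035. Fbxo32, the ubiquitin ligase atrogin-1, read 568, 537, 555 and 347 with vehicle and 585, 676, 1144 and 291 with cerivastatin. Treated replicate 3 was the highest array and replicate 4 the lowest of all 8. The difference was 0.29 (-0.45 to 1.02), so the interval just reached a 2-fold rise. Trim63, the partner ligase MuRF1, gave 0.18 (-0.25 to 0.62), and exercised animals gave -0.52 (-1.06 to 0.011) for Fbxo32 and -0.049 (-0.42 to 0.32) for Trim63. Igf1, a growth factor for muscle, read 1327, 1099, 1097 and 1723 with vehicle and 1419, 2077, 1891 and 1519 with cerivastatin. Its difference was 0.40 (0.012 to 0.79). Mstn, the growth inhibitor myostatin, ranged from 60 to 676.3 among vehicle arrays and from 188.3 to 256.5 among treated ones, which gave -0.046 (-1.27 to 1.17).

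Of 27 myogenic and denervation genes 22 were tested, 5 had a positive value (49.3% over all genes) and 15 lay inside 2-fold. Myod1, the myogenic master regulator, read 2925, 4189.7, 5666 and 3673 with vehicle and 2526, 2944, 2161 and 2272 with cerivastatin. Only treated replicate 2 reached into the vehicle range, and the difference was -0.70 (-1.10 to -0.29), with -0.28 (-0.83 to 0.28) in exercised animals. Myod1 was among the 10 genes with the smallest p in the lower direction, so it is described without a test. Its relative Myog gave 0.27 (-0.14 to 0.68). Myh8, a neonatal myosin, was dim and scattered, with vehicle arrays at 16.4, 175, 8 and 269.9 and a difference of 1.35 (-0.37 to 3.06). Among 8 tested satellite cell markers, Met, the receptor of hepatocyte growth factor, read 60.1, 43.8, 84.7 and 22.2 with vehicle and 109, 164, 123 and 131 with cerivastatin. The groups did not overlap, at 1.23 (0.33 to 2.14), but the vehicle mean was under the filter on dim signals. Met passed that filter only through its treated arrays and was named for its difference on the 8 arrays, so no test is given. Exercised animals gave 0.29 (-0.60 to 1.18).

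Fatty acid oxidation was the list with the highest share of positive values. Of 31 tested genes 29 had a positive value, against 49.3% of all genes, and the median was 0.32, against -0.0034 over all genes, though 0 passed the adjusted test and 3 had an unadjusted p below 0.05, against 3.24% of all genes. Its mean log2 level was 12.68, 11.83, 12.01 and 12.07 in the vehicle arrays and 12.28, 12.34, 12.83 and 12.29 in the treated arrays. Vehicle replicate 1 and treated replicate 3 were high and the other 3 vehicle arrays lowest, so the groups overlapped through 1 vehicle array. The slow-fibre mean was also highest in these arrays of each group, 14.62 in vehicle replicate 1 and 14.21 in treated replicate 3, and its part in these values was not tested. The median was 0.16 without treated replicate 3 and 0.51 without vehicle replicate 1, and 0.24 with each array centred on its median. The exercised comparison had 26 of 31 positive values and a median of 0.38. In that comparison the slow-fibre list was also higher with cerivastatin, with 16 of 16 positive values and a median of 2.36, although exercised vehicle replicate 2 was the array richest in the slow myosin Myh7, and the part of slow-fibre transcripts was not tested.

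Single members show the size. Decr1, a mitochondrial dienoyl-CoA reductase, read 5825, 2833, 3409 and 5232 with vehicle and 5379.5, 6662, 8536 and 5880.5 with cerivastatin. Treated replicate 1 lay within the vehicle range and the other 3 above it, with a difference of 0.65 (0.16 to 1.14). Pdk4, a kinase that inhibits pyruvate dehydrogenase, read 21519, 2571, 8589 and 11604 with vehicle and 19742, 14105, 35913 and 8729 with cerivastatin. Its difference was 0.99 (-0.23 to 2.22), and its other probe set gave 0.995 (-0.14 to 2.13). A 4-fold rise of Pdk4 was not excluded. Cd36, a fatty acid transporter, gave 0.48 (-0.19 to 1.15) and Fabp3, the muscle fatty acid binding protein, 0.47 (-0.22 to 1.16). Hadha (0.46, 0.015 to 0.91) and Acot2 (0.40, 0.016 to 0.78) were named after their values were seen. With Decr1 they were the 3 members with an unadjusted p below 0.05. Ech1, a dienoyl-CoA isomerase outside the list, was among the 10 genes with the smallest p in the higher direction and is described without a test. It read 13526, 11902, 13359 and 11269.9 with vehicle and 14150.5, 18719, 18883 and 16301 with cerivastatin, without overlap, at 0.44 (0.17 to 0.70).

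The respiratory chain and the TCA cycle were measured tightly enough to exclude 2-fold changes throughout. All 59 tested oxidative phosphorylation genes lay inside 2-fold and 56 inside 1.5-fold, with 52 positive values and a median of 0.089 (0.010 after median centring). All 17 tested TCA cycle genes lay inside 2-fold, with a median of 0.10 (0.023 after median centring). Without vehicle replicate 2 these medians were 0.037 and 0.039, and without vehicle replicate 1 they were 0.20 and 0.24. Ndufb8, a complex I subunit, had the largest value of the first list at 0.46 (-0.053 to 0.97), and Dld, a dehydrogenase subunit, of the second at 0.29 (-0.12 to 0.69). Ppargc1a, the mitochondrial coactivator PGC-1alpha, gave 0.35 (-0.14 to 0.83) against -2.02 at the exercised high dose. Of 27 glycolysis and glycogen genes 25 lay inside 2-fold, with a median of -0.045; Pfkfb3, a regulator of glycolysis, gave -0.43 (-1.27 to 0.40), and 0.21 (-0.94 to 1.37) by a dimmer probe set. Of 26 calcium handling genes 22 lay inside 2-fold, and Sln, the SERCA inhibitor sarcolipin, gave 0.47 (-0.73 to 1.67).

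**Figure D4:**
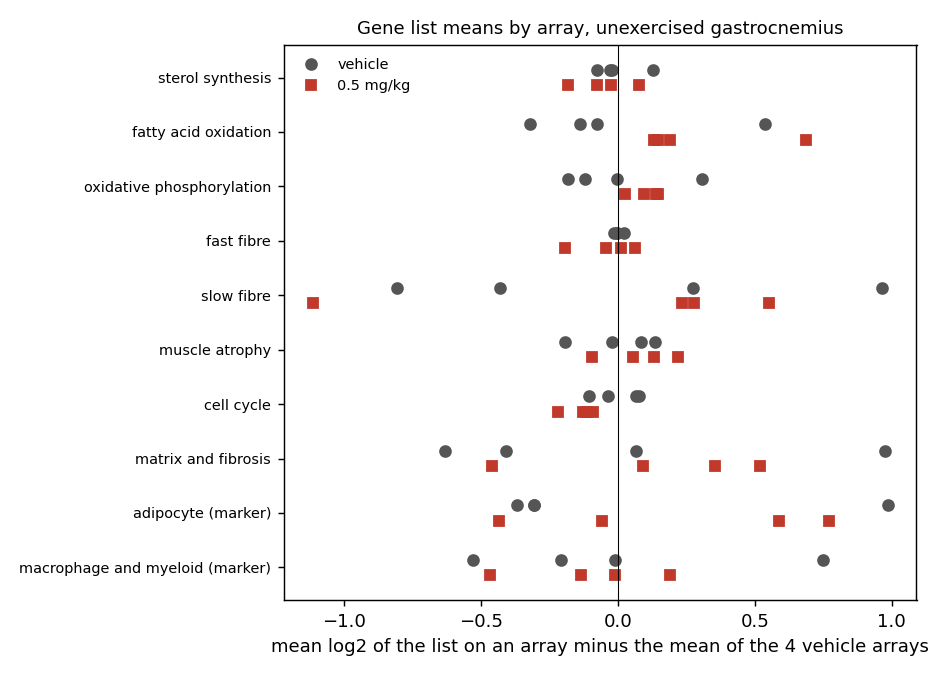
Mean log2 level of 10 gene lists on each of the 8 arrays, minus the mean of the 4 vehicle arrays (horizontal axis, log2 units), for vehicle (grey circles) and 0.5 mg/kg (red squares). The groups overlap in the slow-fibre, matrix, adipocyte and macrophage lists, where single arrays lie far from their group, and in the fatty acid oxidation list 1 vehicle array lies among the treated ones.

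Inflammatory genes were measured within wide limits. Of 38 macrophage and myeloid markers 31 were tested, 14 had a positive value and the median was -0.065; without vehicle replicate 4 it was 0.21 and without vehicle replicate 1 -0.23. A 2-fold rise lay outside the interval for 23 of them, against 82.8% of all genes, and 17 (54.8%, against 73.6%) lay inside 2-fold both ways. Spp1, osteopontin of macrophages and injured muscle, read 53.7, 26, 140.1 and 101 with vehicle and 45.5, 121, 165 and 82.3 with cerivastatin. The groups overlapped, at 0.39 (-0.75 to 1.54), whereas the 3 unexercised 1.0 mg/kg arrays read 22132, 28086 and 1269. Ccl2, a monocyte attractant, gave -0.40 (-1.87 to 1.07) against 7.04 at the exercised high dose, and Timp1, a metalloproteinase inhibitor, -0.13 (-0.96 to 0.71) against 5.61. Ccl7 lay under the filter, at 36.1 to 104.5 in vehicle and 8.4 to 86.1 in treated arrays.

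Trem2, a lipid receptor of macrophages, is described without a test, as it was chosen for the smallest p of all lower genes. The vehicle arrays read 132, 102, 112 and 214 and the treated arrays 9.9, 21.1, 22.7 and 21.6. Every treated array lay below every vehicle array, but the treated mean was under the filter on dim signals, so the gene passed that filter only through its vehicle arrays. The size of the difference depended on the offset, at -2.25 with 12.4, -2.83 with 1 and -1.43 with 50. Exercised vehicle arrays read 134, 38.7, 108 and 43.8 and exercised 0.5 mg/kg arrays 107, 87.7 and 9.7, which overlapped, at -0.40 (-1.91 to 1.12). None of the other macrophage markers tested had an unadjusted p below 0.05.

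Of 33 genes of complement, interferon and antigen processing 27 were tested and 15 lay inside 2-fold, with a median of 0.012. Cxcl10, an interferon-induced chemokine, gave 0.58 (-0.59 to 1.74) and Tap2, a peptide transporter, 0.48 (-0.0049 to 0.97). Matrix genes had a median of 0.028 over 41 tested, of which 26 lay inside 2-fold. Col1a1, the main fibrillar collagen, read 5309, 20704, 11372 and 65022 in the vehicle arrays, with replicate 4 highest, and 13888, 46827, 33353 and 22527 in the treated ones. Its difference was 0.65 (-0.70 to 1.99), and that of Tnc, tenascin C, 0.96 (-0.34 to 2.25). Without vehicle replicate 4 the median of the matrix list was 0.32, and without vehicle replicate 1 it was -0.10.

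Of 38 cell cycle genes 27 were tested and 13 lay inside 2-fold, with a median of -0.072. Top2a, a topoisomerase of dividing cells, gave -0.87 (-2.17 to 0.43) and, by a dimmer probe set, 0.59 (-0.41 to 1.58), and Cdk2, a kinase of S phase entry, -0.82 (-2.06 to 0.42). Mki67 lay under the filter at 1.9 to 87.8 over the 8 arrays. For these dim genes a 2-fold change in either direction was often inside the interval.

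Stress lists differed in precision, and over all genes 73.6% lay inside 2-fold. All 30 proteasome genes lay inside 1.5-fold, and all 17 heat shock genes inside 2-fold. Hsph1, a large heat shock chaperone, read 3146, 2319, 2896 and 1904 with vehicle and 3282, 3678, 3777 and 3626 with cerivastatin. The groups did not overlap, at 0.51 (0.17 to 0.84). Another probe set gave 0.42 (0.032 to 0.80), and exercised animals gave 0.073 (-0.24 to 0.39). Of 25 tested genes of the unfolded protein and amino acid response 20 lay inside 2-fold, and Asns, asparagine synthetase, gave 0.76 (-0.32 to 1.83). Of 23 tested oxidative stress genes 21 lay inside 2-fold; Hmox1, heme oxygenase, gave -0.19 (-0.79 to 0.42) against 4.26 at the exercised high dose, and Slc7a11, the cystine transporter, 0.93 (-0.27 to 2.14). Among 17 tested p53 and apoptosis genes 16 lay inside 2-fold but only 5 inside 1.5-fold, with a median half-width of 0.62 against 0.47 over all genes. Cdkn1a, which encodes the p53 target p21, read 744, 1952, 1748 and 1774 with vehicle and 1374, 2024, 1233 and 1079 with cerivastatin, at -0.071 (-0.70 to 0.56). A dimmer probe set gave -0.68 (-2.15 to 0.79).

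Immediate early genes had 17 of 26 inside 2-fold. Klf2, a factor of quiescence and blood flow response, read 4727, 1515, 2005 and 2485 with vehicle and 1747, 1589, 1122 and 1243 with cerivastatin. Treated replicates 1 and 2 lay within the vehicle range, and the difference was -0.80 (-1.43 to -0.16). Its other 3 tested probe sets, all dimmer, gave 0.0010, 0.00011 and -0.56, so the probe sets disagreed. Fos gave -0.45 (-1.31 to 0.40) and Myc 0.18 (-0.67 to 1.03). Among clock genes 14 of 15 lay inside 2-fold, and Bhlhe40, a clock repressor, gave -0.77 (-1.53 to -0.017). Of 22 tested ribosomal protein genes 21, and of 26 tested lysosome and autophagy genes 23, lay inside 2-fold.

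Markers of other cell types varied between the pieces of muscle. The adipocyte list had a mean log2 level of 9.33, 9.33, 9.27 and 10.63 in the vehicle arrays and 9.21, 10.23, 10.41 and 9.58 in the treated arrays. Vehicle replicate 4 and treated replicates 2 and 3 were high, and the groups overlapped. Plin1, the fat droplet protein, gave 1.32 (-0.49 to 3.14), while Lipe, hormone-sensitive lipase, gave -0.55 (-0.998 to -0.10). A dimmer probe set of each went the other way, at -0.28 (-1.97 to 1.41) for Plin1 and 0.53 (-0.74 to 1.81) for Lipe. All 13 tested endothelial markers lay inside 2-fold. Esam, an endothelial adhesion molecule, read 814, 773, 723 and 1007 with vehicle and 984, 1001, 1226 and 1153 with cerivastatin. Its difference was 0.40 (0.072 to 0.72). Of 12 smooth muscle markers 9 lay inside 2-fold. Among 8 Schwann cell markers Drp2, a protein of myelinating cells, read 197, 132, 134 and 172 with vehicle and 99.3, 21.3, 36.6 and 111 with cerivastatin. Its groups did not overlap, at -1.29 (-2.29 to -0.29), and it was named for that difference. Its other 2 tested probe sets, both dimmer, gave 0.19 (-1.02 to 1.40) and -0.49 (-1.93 to 0.95), and Mbp, myelin basic protein, gave 0.27 (-0.61 to 1.16). An interval inside 2-fold was reached by 0 of 5 neutrophil, 4 of 7 lymphocyte, 3 of 7 mast cell and 1 of 5 erythroid markers tested.

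The 10 genes with the smallest p in each direction were described without a test, since they were chosen on this contrast. In the higher direction they ran from 0.44 (Ech1) to 2.01 (Meltf). Of these 10, 3 (Meltf, Itgb7 and Ica1) had a vehicle mean under the filter on dim signals and passed it only through the treated arrays. Pik3c2a, a lipid kinase of endocytosis, read 249, 281, 309 and 372 with vehicle and 609, 573, 522 and 473 with cerivastatin, at 0.83 (0.43 to 1.23); another probe set gave 0.38 (-0.12 to 0.87). Vps13c, a lipid transfer protein, read 17.4, 69.4, 54.9 and 159 with vehicle and 258, 308, 256 and 214 with cerivastatin, at 1.89 (0.89 to 2.89). Slc12a9, a cation chloride cotransporter family member, read 108, 99.1, 108 and 82.4 with vehicle and 194, 204, 215 and 286 with cerivastatin, at 1.08. The rest were Gstcd (1.12), Sh2b2 (0.86), Itgb7 (1.74), Oplah (0.54) and Ica1 (1.88). Meltf, a surface transferrin family protein, had vehicle signals of 19.1, 26.2, 18.3 and 21.8, near the dim end of the scale, and treated signals of 149, 115, 69.3 and 189.8.

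The genes with the smallest p in the lower direction ran from -2.25 (Trem2) to -0.52 (Mtf2). Of these 10, 4 (Trem2, Syne4, Rin1 and Abi3) had a treated mean under the filter and passed it only through the vehicle arrays. Mtf2, a Polycomb accessory protein, read 781, 795, 828 and 865 with vehicle and 486, 568, 555 and 667 with cerivastatin, a difference of -0.52. Its other 4 tested probe sets, all dimmer, gave -0.14, 0.40, -0.068 and -0.11, so they did not share that value. Srek1ip1, a splicing regulator partner, read 945, 1218, 839 and 871 with vehicle and 709, 575, 544 and 676 with cerivastatin, at -0.61 (-0.97 to -0.26). Syne4, a nuclear envelope protein, read 92.7, 152, 239.5 and 136 with vehicle and 28.6, 32.1, 22.7 and 19.9 with cerivastatin. The others were Ccdc77 (-0.94), Lrrc37a (-1.33), Rin1 (-1.91), Abi3 (-1.96), Stmn4 (-1.30) and Myod1.

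These 20 genes were also read in the exercised comparison at 0.5 mg/kg, on arrays that their choice did not use. All were read on the same 7 arrays, so the counts of signs are not counts of replicates. Those arrays differed in slow-fibre transcripts, and the part of these in the values was not tested. Of the 10 higher genes 8 also had a positive value there, against 47.8% of all genes, with a median of 0.092. Of the 10 lower genes 6 had a negative value, against 52.2% of all genes, with a median of -0.22. The smallest unadjusted p among them in exercised animals was 0.0555, for Mtf2, whose exercised value was -0.47 (-0.94 to 0.013). The difference between the exercise states passed limma's test after adjustment over all probe sets in 0 of the 20, with 0.9999 the smallest adjusted p. Its unadjusted p-values are not counted for these genes, since the choice of the genes used the unexercised term.

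Variation among the 4 treated animals was largest in 8 genes, which were chosen for it. Alb, the plasma protein albumin, read 60, 15.7, 60.7 and 58.7 with vehicle and 554, 66.8, 1853 and 98.4 with cerivastatin. Replicates 1 and 3 were far above the other treated arrays, and all 4 lay above vehicle, at 2.44 (0.60 to 4.28), with a vehicle mean under the filter on dim signals; another probe set gave 1.07 (-0.42 to 2.56). In exercised animals Alb gave -1.998 (-3.85 to -0.15). Fam111a, a replication-linked protease, read 1632, 3001, 31.1 and 418 in the treated arrays, with replicate 3 lowest, and 1803, 3440.1, 1428 and 1559 with vehicle. Ap4b1, an adaptor subunit, read 624, 34.2, 849.5 and 606, with replicate 2 alone low, and Adh1c, an alcohol dehydrogenase, 207, 302, 255 and 9.8, with replicate 4 alone low. Cidec, a fat droplet protein, read 20.5, 393, 334 and 45.9 with cerivastatin and 69.5, 46.6, 85.7 and 512 with vehicle. Evi2a, Rnf39 and Ush1c each had 2 treated arrays high and 2 low, with SDs of 1.84, 1.81 and 1.77. For 5 of the 8 genes the interval reached beyond 4-fold in at least 1 direction.

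**Figure D5:**
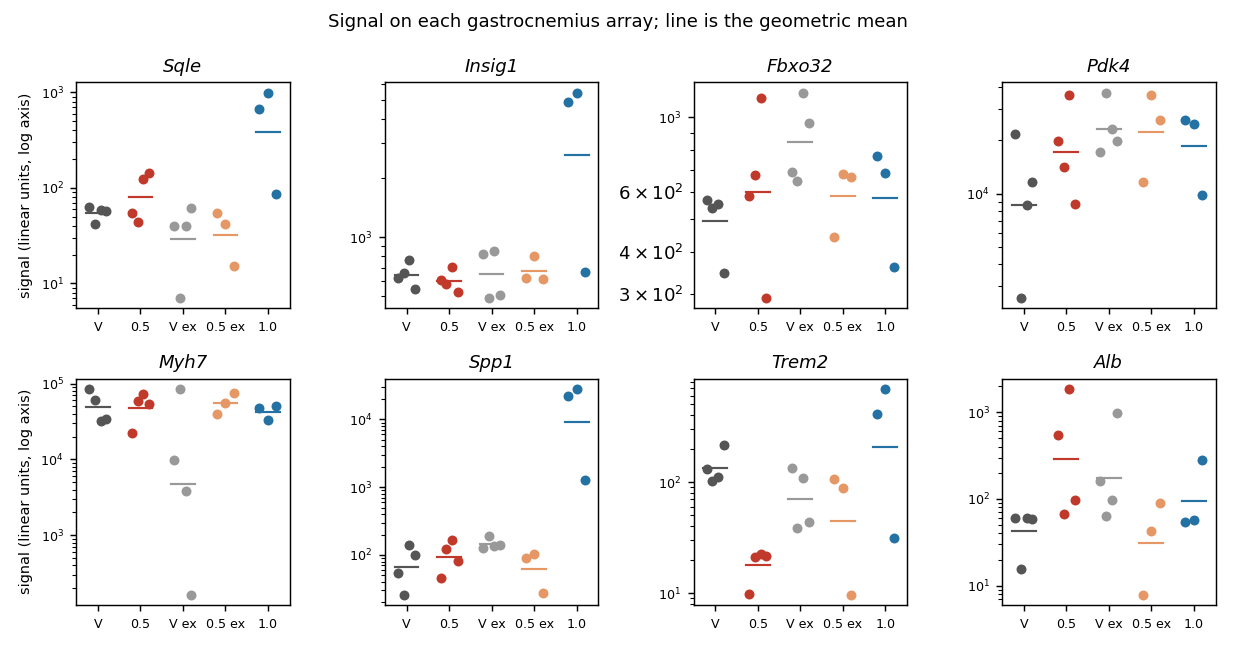
Signal of 8 genes on single gastrocnemius arrays (points, vertical log axis in linear signal units, line at the geometric mean) for unexercised vehicle (V), unexercised 0.5 mg/kg, exercised vehicle (V ex), exercised 0.5 mg/kg (0.5 ex) and unexercised 1.0 mg/kg. Trem2 and Alb separate the unexercised vehicle and 0.5 mg/kg arrays, Sqle and Insig1 stand out on 2 of the 3 arrays at 1.0 mg/kg and Spp1 on all 3, and Myh7 spreads from 165 to 84953 in exercised vehicle.

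With exercise the same dose was read on 3 arrays against 4 of exercised vehicle. Again 0 of 21729 probe sets (0%) passed limma's test after adjustment, and 899 (4.14%) had an unadjusted p below 0.05. The exercised vehicle arrays differed in slow-fibre transcripts: Myh7 read 9892, 84953, 3793 and 165 there and 40099, 54787 and 75459 at 0.5 mg/kg. The slow-fibre list had 16 of 16 positive values in that comparison, with a median of 2.36, and 0 passed adjustment. Without exercised vehicle replicate 2, the array with the most Myh7, 97 probe sets passed. The test of whether the middle-dose difference itself differed between unexercised and exercised rats called 0 of 21729 (0%), with 731 (3.36%) at an unadjusted p below 0.05. Cdkn1a, a panel gene with such a p, gave -0.071 (-0.70 to 0.56) without and -1.08 (-1.76 to -0.40) with exercise, where the difference had an unadjusted p of 0.0467. Its dimmer probe set was lower in both, at -0.68 (-2.15 to 0.79) without and -1.98 with exercise.

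The middle dose was also set against its neighbours, comparisons that share its 4 arrays. Between 0.5 and 0.1 mg/kg without exercise 0 of 21729 probe sets (0%) passed limma's adjusted test and 599 (2.76%) had an unadjusted p below 0.05; without 0.1 mg/kg replicate 3, 0 passed and 1045 had such a p. That array also had the lowest 5' to 3' ratios of the 30 gastrocnemius arrays, 0.116 for beta-actin and 0.475 for GAPDH, and their part in its values was not tested. Between 1.0 and 0.5 mg/kg, fitted with all 30 gastrocnemius arrays, 1137 probe sets (5.23%) were called higher and 783 (3.6%) lower at 1.0 mg/kg. Replicate 3 of 1.0 mg/kg moved that count: 5746 were called without it, 0 without replicate 1 and 1 without replicate 2, and 0 when only the 7 arrays compared were fitted. In the fit of 30 arrays 29 of 31 macrophage markers (median 2.69), 13 of 27 cell cycle genes, 10 of 25 genes of the unfolded protein response and 5 of 19 sterol synthesis genes were called higher at 1.0 than at 0.5 mg/kg, and 4 of 19 fast-fibre genes lower. Insig1 was 2.10 higher and Sqle 2.10 higher at 1.0 than at 0.5 mg/kg, and Myh4 gave -2.28.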

How the data were processed

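Signals of 31099 probe sets on 45 arrays were deposited as 1 table of linear intensity values, with MAS5 as the summary tool per the submitters' processing notes. Which MAS5 version was run, and to what target the arrays were scaled, is not given in the sources used here. Each of the 8 arrays compared has a trimmed mean of 600.3 (2% trimmed at each end), and no other step between arrays is visible. After removal of 57 control probe sets, log2(value + 12.4) was taken, the offset being the 10th percentile of all values, which understates changes of dim genes. Probe sets with a mean over the 8 arrays under the 30th percentile (6.016) were dropped, leaving 21729. Of 31042 probe sets, 20826 had 1 symbol in GEO's platform annotation, 436 several and 9780 none, and 20758 were matched to RefSeq (GRCr8) by gene ID; a gene was read through its brightest tested probe set. With no counts, the number of arrays limits the precision.

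The 8 arrays were fitted with limma 3.58.1 in R 4.3.3 (lmFit, eBayes with a mean trend, Benjamini-Hochberg adjustment), which was tested on simulated data. Only these arrays were used because the 1.0 mg/kg arrays vary widely between animals; this was decided knowing that a fit of all 30 arrays called 0. Comparisons with the exercised and 0.1 mg/kg arrays used only the groups compared, and 1.0 against 0.5 mg/kg all 30. The members, gene lists and rules were chosen with earlier results of these data known. Named genes were a panel of 36 (31 tested), the 10 smallest p in each direction, the 8 largest SDs among treated arrays and up to 4 genes per list with the largest difference. Alternatives covered offset, filter, scaling, arrays fitted, variance prior, probe set choice, replicate block and leaving out each array. Replicate numbers were not used to pair the samples in the main fit, and whether they mark pairs is not known.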

Additional observations from a re-analysis of the deposited data

Results flagged for a closer look

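Each group of 4 arrays was screened for an array standing apart from the other 3, by Dixon's test at its 95% critical value on the log2 scale. Of 188 groups (59 named genes and 35 list means, in vehicle and in 0.5 mg/kg), 21 held such an array, 13 in vehicle and 8 in 0.5 mg/kg. Chance gives about 1 in 20 groups where genes are not chosen on these values; 28 of the 59 genes were chosen by p or SD on the same 8 arrays, so that rate is no yardstick for them. No difference between unexercised and exercised rats passed the adjusted test in these genes.

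In vehicle, replicate 4 was apart in 6 of the 13: low for Idi1 (7.45, others 8.45 to 8.52) and Fbxo32 (8.49, others 9.10 to 9.18), and high for Timp1 (9.75, others 8.38 to 8.43), Ica1 (7.38, others 5.01 to 5.13), the prenylation and small GTPase list (10.79, others 10.69 to 10.70) and the adipocyte list (10.63, others 9.27 to 9.33). Replicate 2 was low for Dhcr7 (6.94), Ucp3 (10.19) and Alb (4.81). Replicate 1 was low for Cdkn1a (9.56, others 10.78 to 10.94) and high for Cox8b (15.86). Replicate 3 was high for Ccdc77 (9.58) and low for the smooth muscle list (9.62).

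In 0.5 mg/kg, replicate 3 was high for the fatty acid oxidation list (12.83, others 12.28 to 12.34) and the satellite cell list (8.79), and low for the prenylation and small GTPase list (10.47). Replicate 1 was low for Timp1 (7.55, others 8.95 to 9.01) and Trem2 (4.48). Replicate 4 was high for Dhcr7 (7.51) and low for Adh1c (4.47). Replicate 2 was low for Ap4b1 (5.54, others 9.27 to 9.75). Causes were not tested.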

How the results depend on the processing

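At 0.5 mg/kg without exercise the count of called probe sets was 0 under every alternative run: offsets of 1 and 50, no filter and a 50th percentile filter, median centring, quantile normalization, fits of 30 or 23 gastrocnemius arrays, no mean trend, robust variances, the replicate block and each array left out. The number of intervals inside 2-fold ran from 12297 (all 30 arrays) to 17272 (offset 50), and was 14618 of 31042 (47.1%) with no filter. The median half-width ran from 0.44 (50th percentile filter) to 0.82 (no filter). Median centring moved the median of all probe sets from 0.015 to -0.065.

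The replicate block, with which samples of 1 number are treated as a pair, gave 0 calls, 14193 intervals inside 2-fold and a half-width of 0.55; correlations of same-numbered deviations were 0.071, -0.0015, 0.051 and 0.033, and 2 of 4 vehicle arrays correlated best with their own number. The exercised comparison called 2 with all 30 arrays, and 0 to 97 with 1 array left out. The 1.0 against 0.5 mg/kg count was 1453 with the block, 0 with only its 7 arrays, and 0 to 5746 with 1 array left out. Among high-dose responders of at least 4-fold, 957 (79.2%) excluded a 2-fold change in the high-dose direction, against 82.8% of all genes for a rise and 85.9% for a fall. Of 1160 values of 59 named genes, 13 in 10 genes moved by over 1 SD. Of these, 9 moved with a changed offset, 3 with the mean over probe sets and 0 with an array left out. Dim probe sets, 4 animals a group and the unknown part of the gastrocnemius taken are the limits.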
